A study of Mus musculus with 16 samples.

Results

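The Hox cluster genes of P19 cells were taken from the array as every noncontrol probe whose gene name is Hox, a cluster letter from a to d and a number. The rule found 39 genes measured by 45 of the 55681 probes, namely, 11 genes of the HoxA cluster, 10 of HoxB, 9 of HoxC and 9 of HoxD. P19 is a mouse embryonal carcinoma line. In all 4 conditions the cells had been transfected, with a control, with a mimic of the miRNA let-7a, with an siRNA against Sfpq (siSfpq), or with the mimic together with siSfpq. Sfpq is a nuclear RNA-binding protein, and the study asked how it bears on silencing by miRNAs. siRNAs and mimics were used at 24 nM, RNA was collected after 48 h, and 4 arrays of 1 colour were deposited per condition. The arrays measure a population of transfected cells, so that fewer cells expressing a gene and less RNA per cell cannot be told apart.

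Hox genes encode homeodomain transcription factors that give cells their position along the head-to-tail axis. In the mouse they lie in 4 clusters that arose by duplication, and genes that hold the same place in different clusters are paralogues with the same number. Low numbers lie at the 3′ end of a cluster and are switched on early and toward the head, whereas high numbers are switched on late and toward the tail. Undifferentiated embryonic cells keep the clusters silent under Polycomb proteins, and retinoic acid opens them from the 3′ end. The clusters also encode miRNAs of the miR-10 and miR-196 families.

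The mature sequences of the transfected miRNA and of the cluster miRNAs are shown (RefSeq, GRCm38.p6), because the seed decides which mRNAs a miRNA can bind. Capitals mark the seed, bases 2 to 8. The arrays did not measure these mature miRNAs.
mmu-let-7a-5p: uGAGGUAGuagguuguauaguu
mmu-miR-196a-5p: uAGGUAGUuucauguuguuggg
mmu-miR-196b-5p: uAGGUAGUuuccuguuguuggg
mmu-miR-10a-5p: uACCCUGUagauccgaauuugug
mmu-miR-10b-5p: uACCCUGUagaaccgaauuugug
The seeds of let-7a and miR-196 share a run of 6 bases, AGGUAG, shifted by 1 position, whereas let-7a and miR-10 share no run above 2 bases. miR-196a and miR-196b have the same seed, as have miR-10a and miR-10b. The 7-base DNA match of the let-7a seed, CTACCTC, occurs in 0 of the 45 Hox probes and in 0.366% of all probes, and the probes do not show what the rest of each mRNA holds.

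The homeobox itself is printed from Hox probes that hold a homeobox stretch of 14 bases, of which 4 may be any base, searched on the probe strand. This stretch lies in the recognition helix, which reads the DNA, and is shared among paralogues and clusters. Capitals mark it. It occurs in 3 of the 45 Hox probes and in 10 of all 55681 probes.
Hoxc11: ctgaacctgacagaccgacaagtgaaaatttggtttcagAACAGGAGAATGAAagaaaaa
Hoxc12: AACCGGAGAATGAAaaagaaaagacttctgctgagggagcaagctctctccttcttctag
These probes lie on the + strand at chr15:102787022-102787081 and chr15:102768889-102768948 of mm9, the build of the array design. Both were well above background on 0 of 16 arrays.

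Each array had 33733 to 38464 spots well above background, of 59305. The log2 difference between arrays 1 and 2 of a condition had an SD of 0.152 to 0.186, against 0.131 between spots of a probe on the same array. Arrays 1 and 2 thus differed slightly more than spots did. Their mean was still used as a single sample, so that every condition has 3 samples. With 16 arrays kept apart 19.8% of all genes were called with let-7a, against 6.94% here. The methods name 3 replicates of transfected cells, and neither they nor the labels say whether these were separate cultures, so that p values measure the spread between these samples, which may be partly technical. Replicate 3 stood apart. Its SD of the log2 difference from the other arrays of its condition was 0.405 to 0.641, against 0.257 to 0.321 between replicate 4 and arrays 1 or 2. Its Sfpq level with siSfpq was 11.46 (log2), against 10.55 in arrays 1 and 2 and 10.62 in replicate 4, with 11.98 to 12.07 in control. Sfpq mRNA fell by 1.13 on the log2 scale with siSfpq (limma adjusted p = 0.00728). With both agents its level was 11.31 to 11.49, which differed by -0.61 from control (limma adjusted p = 0.182), by -0.58 from let-7a (limma adjusted p = 0.142) and by 0.52 from siSfpq alone (limma adjusted p = 0.0994). Leaving out replicate 3 changed many calls, and values without it are given for several genes. Such values rest on 2 samples per condition, and the share of all genes called rises to 30.1% for let-7a against control and to 49.3% for siSfpq against control.

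Most Hox mRNAs were at or near background in these cells. Of the 39 genes, 8 were well above background on all 16 arrays, 7 on all arrays of some conditions only, 10 on some arrays but on all 4 of no condition, and 14 on no array. The 15 genes of the first classes were tested among 18337 genes, 5 of them in HoxA, 1 in HoxB, 4 in HoxC and 5 in HoxD. The number of Hox genes that passed on each of the 4 arrays of a condition was 10 for control, 14 for let-7a, 9 for siSfpq and 11 where both agents were used. Over all named genes of the array, these numbers were 17339, 18008, 16757 and 17761.

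By paralogue number, the tested genes fall at places spread along the clusters. Hoxd1 of group 1, Hoxc4, Hoxa7, Hoxd8, Hoxa9 and both Hoxb13 and Hoxc13 of group 13 were among the genes well above background on all 16 arrays. Groups 2, 5, 10, 11 and 12 had no tested gene. In group 10, 3 of 3 genes were well above background on no array. The silent genes included the neighbours of tested ones. Hoxc8, which lies between Hoxc6 and Hoxc9, was on 0 of 16 arrays, and Hoxb1, a paralogue of Hoxd1, was also on 0. The other genes on no array were Hoxa10, Hoxa11, Hoxa13, Hoxb2, Hoxb5, Hoxb8, Hoxc10, Hoxc11, Hoxc12, Hoxd10, Hoxd12 and Hoxd13.

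**Figure D1:**
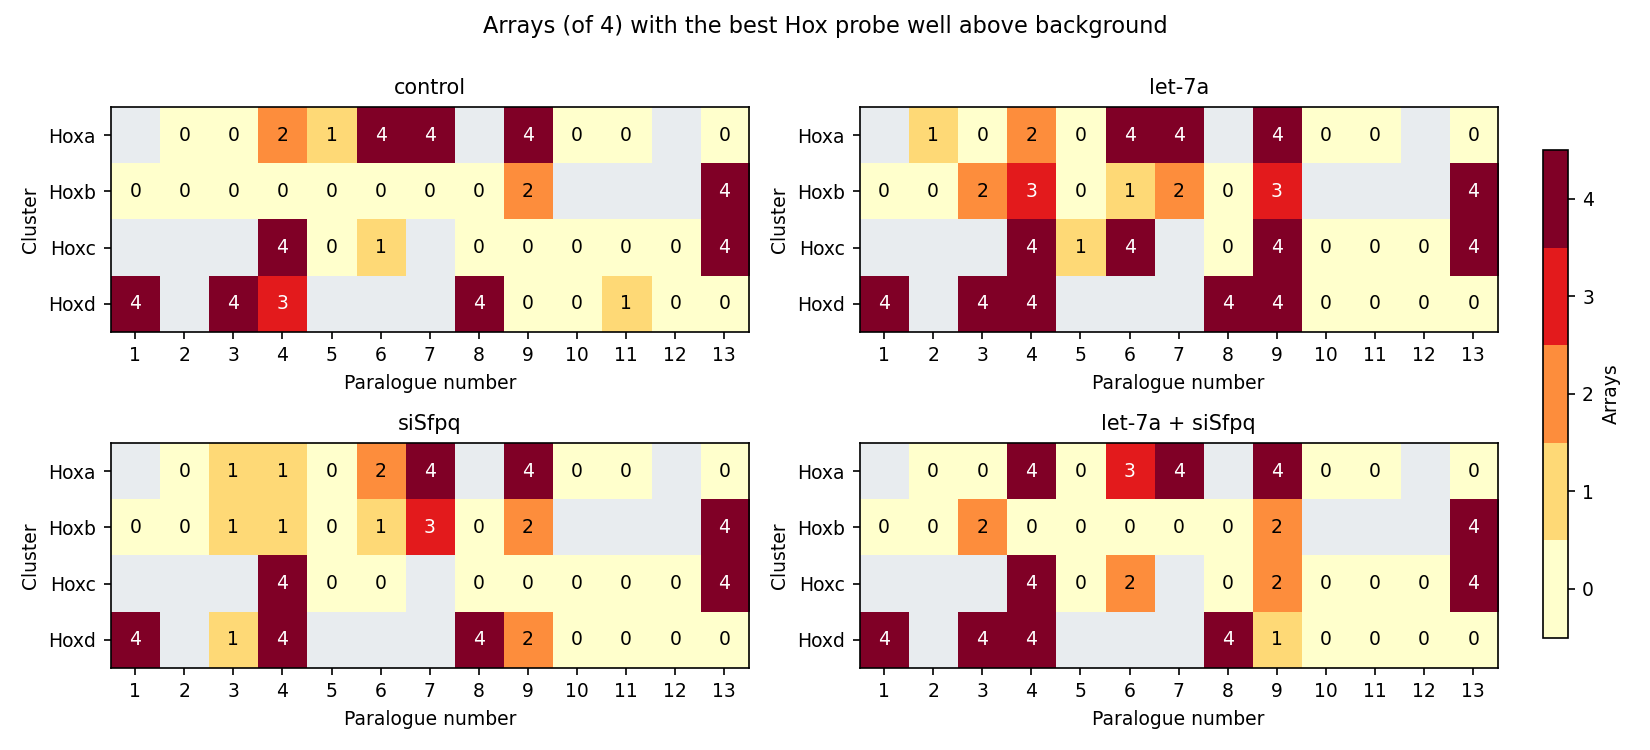
Number of arrays, of 4 per condition, on which the best probe of each Hox gene was well above background. Rows are clusters, columns are paralogue numbers, and grey cells are places for which no gene is shown. The Hoxb row holds Hoxb13 on all arrays and few others, and Hoxc6, Hoxc9 and Hoxd9 reach 4 arrays in let-7a alone.

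The question of the first comparison is which mRNAs a let-7a mimic changes. Hoxc4, Hoxc6 and Hoxc9 rose, all of the HoxC cluster, and no Hox gene was called lower in the fit without a block. These genes mark the cervical to thoracic part of the trunk, and Hoxc6 and Hoxc9 are known in the spinal cord for separating motor neurons of the forelimb level from those of the trunk. The 3 genes called higher are set against 4.91% of all genes called higher and 2.03% called lower. Blocked on the replicate, as given below, 4 Hox genes were called higher and 3 lower, against 11.6% and 10.1% of all genes. Hoxc6 and Hoxc9 passed the filter through the let-7a arrays alone, which favours a higher value there. With no filter the same 3 genes were called, Hoxc4 at 1.58, Hoxc6 at 2.17 and Hoxc9 at 3.06 in measured difference (limma adjusted p = 0.0483, 0.0183 and 0.0137), where 3.77% of 27400 genes were called in either direction. Of the 8 genes on all 16 arrays, which did not depend on a condition, Hoxc4 was called higher and none lower, and 1 was higher and 3 lower with the block given below. Among all 16434 genes held to the same rule, 4.04% were called higher and 2.11% lower. Without replicate 4, and without arrays 1 and 2, no Hox gene was called and at most 3 of all genes were, and without array 1 alone Hoxc6 was lost. The median log2 change was 0.03 over the 15 tested Hox genes and -0.04 over all genes.

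Hoxc4 (NM_013553, probe at chr15:102867213-102867272, + strand, mm9) is the gene at the 3′ end of HoxC. Its log2 level in arrays 1 and 2, replicate 3 and replicate 4 was 5.32, 4.79 and 5.47 in control. In let-7a it was 7.23, 5.84 and 7.25. All let-7a samples lay above all control samples, and replicate 3 was the lowest of both. In siSfpq it was 5.17, 4.70 and 5.18. In let-7a + siSfpq it was 6.14, 5.72 and 5.88, which is above every control and siSfpq sample. The log2 change with let-7a was 1.58 (standard error 0.35, limma adjusted p = 0.0207). Without replicate 3 it was 1.85 (limma adjusted p = 1.67e-04). Within slide 1, which holds arrays 1 and 2, the change was 1.91, and within slide 2 it was 1.42. Its size depended on how background was handled, at 0.89 with normexp and 1.12 on the deposited log2 values (limma adjusted p = 0.0221 and 0.0226). Fitted with only the groups compared, it was not called (limma adjusted p = 0.0538).

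Hoxc6 (NM_010465, probe at chr15:102842243-102842302, + strand, mm9) had levels of 4.39, 3.32 and 2.97 in control, where 1 of 4 arrays was well above background. In let-7a the levels were 5.71, 5.68 and 5.79, on 4 of 4 arrays. The let-7a samples were close together and above all others. In siSfpq the levels were 3.11, 3.16 and 3.78, on 0 of 4 arrays, and in let-7a + siSfpq they were 3.14, 4.19 and 4.10, on 2 of 4. The measured change with let-7a was 2.17 (standard error 0.39, limma adjusted p = 0.00764), and 2.07 without replicate 3 (limma adjusted p = 0.0227). With 3 of the 4 control arrays not well above background, the size of this change is uncertain. It was 1.31 within slide 1 and 2.59 within slide 2. With normexp it was 0.63 and on the deposited log2 values 0.88, both called (limma adjusted p = 0.00188 and 0.0055). Without array 1 it was 1.79 and not called (limma adjusted p = 0.0922).

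Hoxc9 (NM_008272, probe at chr15:102814735-102814794, + strand, mm9) had measured levels of 1.77, 1.97 and 3.97 in control, with 0 of 4 arrays well above background. With let-7a they were 5.92, 5.36 and 5.60, on 4 of 4 arrays. Hoxc9 was thus detected with let-7a and not in control. The measured log2 difference, from a control level at background, was 3.06 (limma adjusted p = 0.00501). As a bound by condition means, for which no test was run, Hoxc9 was at least 3.26-fold higher in let-7a. On each control array this takes the higher of the level of Hoxc9 and the lowest signal that passed for well above background. The bound is for the means, and in replicate 4 alone the measured log2 difference was 1.62, slightly less. This bound holds only on the scale of the processed intensities as normalized here. The log2 difference was 0.62 with normexp and 0.92 on the deposited values, which is less than the bound, and both were called (limma adjusted p = 0.00126 and 0.00144). In siSfpq it was on 0 of 4 arrays. In let-7a + siSfpq the levels were 3.55, 3.35 and 4.26, on 2 of 4 arrays, below every let-7a sample.

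Hoxc13, at the 5′ end of the cluster and known for its part in hair and nails, differed by -0.22 with let-7a (limma adjusted p = 0.665), with levels of 6.02 to 6.46 in control and 5.74 to 6.43 in let-7a. Hoxc5, which lies between Hoxc4 and Hoxc6, was well above background on 1 of 4 let-7a arrays and on no other array. Its measured levels were 2.47, 3.77 and 1.76 in control and 3.2, 4.68 and 3.3 in let-7a, higher in 3 of 3 replicates, mostly at background and not tested. Hoxc8, Hoxc10, Hoxc11 and Hoxc12 were on none. Hoxc5 and Hoxc8, which lie between the genes that rose, were thus not tested.

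**Figure D2:**
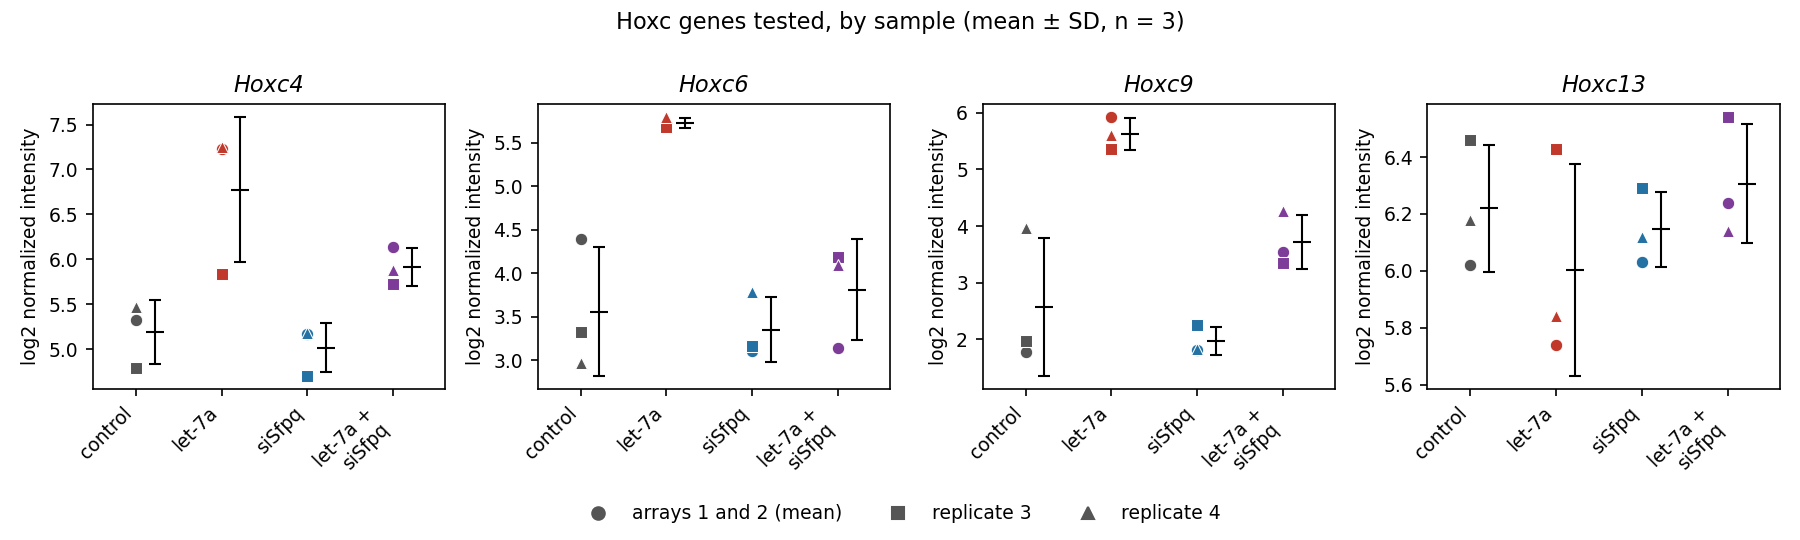
log2 normalized intensity of the 4 tested Hoxc genes in the 3 samples of each condition, with the mean and SD beside the points. Hoxc4, Hoxc6 and Hoxc9 are higher in every let-7a sample than in any control sample, whereas the Hoxc13 samples overlap between conditions.

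The other probes within the HoxC window, from the Hoxc13 to the Hoxc4 probe, were not called. They are 5 probes named HOTAIR, an antisense noncoding RNA, of which 1 was on all 16 arrays (log2 change -0.42 with let-7a, limma adjusted p = 0.411), and 1 of the predicted gene Gm4200 (-0.39, limma adjusted p = 0.355). None of the 6 tested genes outside HoxC, Calcoco1, Atp5g2, Cbx5, Hnrnpa1, Smug1 and Sp1, was called with let-7a. Their log2 changes lay between -0.20 and 0.42.

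Some markers of another cell type also rose with let-7a. Of 6 posterior neural and motor neuron markers, 5 were tested and 2 rose with let-7a, where 4.91% of all genes were called higher and 2.03% lower. With the block given below 3 rose, where 11.6% of all genes were called higher and 10.1% lower. Isl1, a transcription factor of motor neurons, rose by 2.18 (limma adjusted p = 0.00193). Mnx1 did not pass the filter. The summed level of the tested markers was 2940 to 5040 in control, 12700 to 22500 in let-7a, 575 to 1310 in siSfpq and 5000 to 9250 where both were used. With siSfpq 2 of the tested markers were called lower and none higher, against 7.34% and 6.32% of all genes. Hoxc4 differed there by only -0.18 (limma adjusted p = 0.790). The part of these markers in the change of the Hoxc genes was not tested.

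Promoters are shown for Hoxc4 and Hoxd4, paralogues that lay higher with let-7a in every replicate (RefSeq, GRCm38.p6, 250 bases before the start site, chr15:103034145-103034394 and chr2:74721728-74721977, both on the + strand). Of the 39 genes, 22 had a promoter in the table, and of the 15 tested genes 9 had, Hoxc6, Hoxc9 and Hoxb13 not among them. Capitals mark matches on either strand to 4 motifs. One is TATAAA, the TATA box. The core that retinoic acid receptors bind as a pair is AGGTCA. Hox proteins with Pbx bind TGATNNAT, and the last motif is the CCAAT box. No matches overlap.
Hoxc4: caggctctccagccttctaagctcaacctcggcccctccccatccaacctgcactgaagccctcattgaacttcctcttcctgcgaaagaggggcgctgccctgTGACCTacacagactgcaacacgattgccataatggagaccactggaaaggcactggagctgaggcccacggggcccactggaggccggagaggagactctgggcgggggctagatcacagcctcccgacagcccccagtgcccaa
Hoxd4: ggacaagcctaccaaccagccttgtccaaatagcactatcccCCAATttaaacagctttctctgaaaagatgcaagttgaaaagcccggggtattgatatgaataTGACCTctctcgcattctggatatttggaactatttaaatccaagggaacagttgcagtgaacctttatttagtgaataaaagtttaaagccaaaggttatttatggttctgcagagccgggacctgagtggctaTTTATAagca
AGGTCA occurs in both, at positions -146 to -141 and -145 to -140 from the start site. It was in 4 of the 9 promoters of tested Hox genes, the others being Hoxd3 and Hoxd8, in 6 of 24 Hox promoters and in 14% of all 32544 promoters. TGATNNAT was in 0 of the 9 and in 7.66% of all promoters. TATAAA was in 1 of the 9 and in 12.3% of all, and CCAAT in 5 of the 9 and in 33.8% of all. Hoxd8, which also holds AGGTCA, did not lie higher with let-7a, as given below. Hoxd3, Hoxd9 and, by at most 0.04, Hoxa9 also lay higher in every replicate. The promoters of Hoxd9 and Hoxa9 hold none of the 4 motifs.

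Replicate numbers pair the samples, and a fit blocked on the replicate called 7 Hox genes with let-7a. Of these 4 were higher, Hoxc4, Hoxc6, Hoxc9 and Hoxd4, and 3 were lower, Hoxb13 and Hoxd1 among them. This fit called 11.6% of all genes higher and 10.1% lower.

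Hoxd1 (probe at chr2:74603000-74603059, + strand, mm9), at the 3′ end of HoxD, had levels of 6.96, 7.12 and 6.98 in control and of 6.29, 6.86 and 6.17 in let-7a, with no overlap. The difference was -0.58 (standard error 0.30, limma adjusted p = 0.300, and 0.0365 with the block). Without replicate 3 it was -0.74 (limma adjusted p = 0.00351). In siSfpq the levels were 6.78, 7.79 and 6.61, where replicate 3 was the highest by about 1 log2 unit, and in let-7a + siSfpq they were 6.53, 7.10 and 6.59.

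Hoxb13 (probe at chr11:96057854-96057913, + strand, mm9), which limits the growth of the tail end of the axis, was the only HoxB gene tested. It lies apart from the other HoxB genes, at the 5′ end. Its levels were 11.47, 12.23 and 11.44 in control and 11.05, 11.71 and 10.90 in let-7a. Each let-7a sample lay below the control sample of its own replicate, and the groups overlapped. The difference was -0.49 (standard error 0.26, limma adjusted p = 0.312, and 0.0359 with the block). Without replicate 3 it was -0.48 (limma adjusted p = 0.00396). In siSfpq the levels were 12.07, 12.73 and 12.11, and in let-7a + siSfpq 12.17, 12.30 and 12.37.

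Hoxd4 (probe at chr2:74566866-74566925, + strand, mm9), a hindbrain and neck gene, had levels of 5.43, 4.34 and 5.01 in control and of 5.91, 5.25 and 5.98 in let-7a. It was higher with let-7a in 3 of 3 replicates, by 0.48, 0.91 and 0.97. The difference was 0.78 (standard error 0.37, limma adjusted p = 0.261, and 0.00615 with the block). Without replicate 3 it was 0.72 (limma adjusted p = 0.0282). In siSfpq the levels were 5.67, 4.83 and 5.59, and in let-7a + siSfpq 5.53, 4.45 and 5.26.

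**Figure D3:**
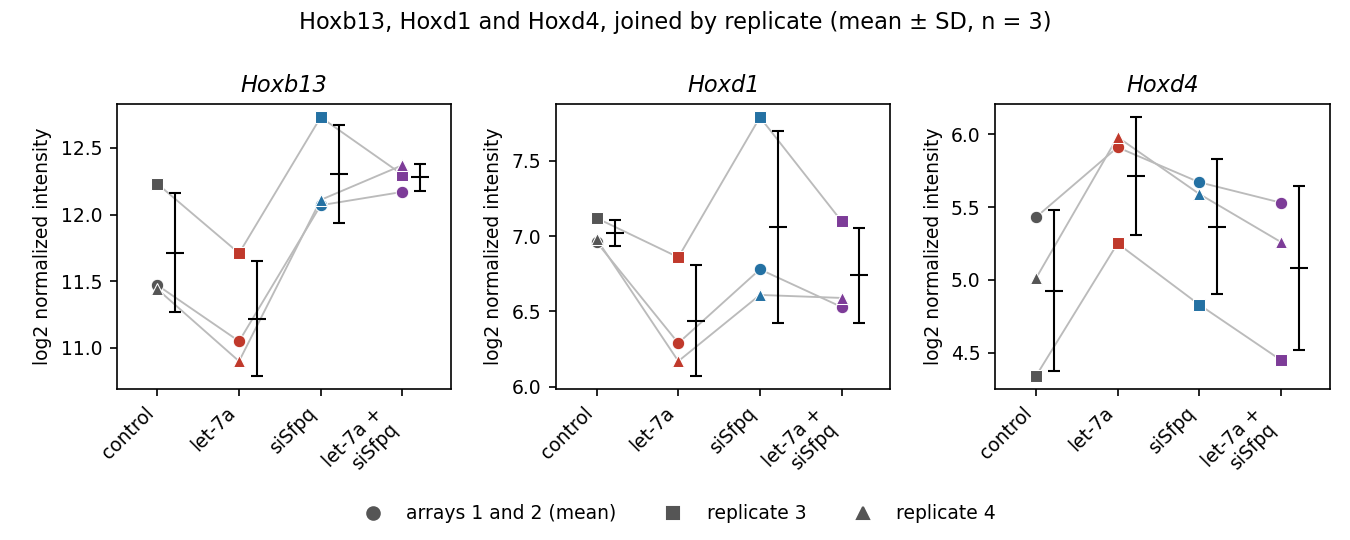
log2 normalized intensity of Hoxb13, Hoxd1 and Hoxd4 in the 3 samples of each condition, with grey lines joining samples of the same replicate and the mean and SD beside the points. The lines of Hoxb13 fall from control to let-7a and rise to siSfpq in every replicate.

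The remaining HoxD genes were not called with let-7a. Hoxd3 was on 13 of 16 arrays, with levels of 4.66 to 4.88 in control and 5.08 to 5.31 in let-7a (difference 0.42, limma adjusted p = 0.365). Hoxd8 was on all 16 arrays, at 6.65 to 6.81 in control and 6.43 to 6.63 in let-7a (difference -0.21, limma adjusted p = 0.505). Hoxd9 passed through the let-7a arrays alone, where it was on 4 of 4 against 0 of 4 in control. Its levels were 3.11 to 3.28 in control and 4.05 to 4.43 in let-7a, and the difference did not pass (limma adjusted p = 0.412). It was called without replicate 3 (limma adjusted p = 0.0276) and with only the groups compared, but not with or without the block over all samples. In siSfpq its levels ran from 1.56 to 4.68. The HoxD window also holds Hoxd3os1, an antisense transcript, which rose by 0.88 with let-7a (standard error 0.21, limma adjusted p = 0.0275) on 1 of its 2 probes, the other being on no array. Haglr, AI448005 and Gm53, further transcripts, and Hoxa11os of HoxA were tested and not called, nor were any of the 8 probes without a Hox name that passed within the HoxB window, Gm53 among them. Of the 9 tested genes outside HoxD none was called with let-7a.

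From HoxA, Hoxa4, Hoxa6, Hoxa7 and Hoxa9 were not called in any comparison, with or without the block. Without replicate 3, Hoxa7 was called lower in let-7a + siSfpq than in siSfpq (-0.60, limma adjusted p = 0.0228). With let-7a they had log2 differences of 0.03, -0.04, 0.01 and 0.04. The 95% interval of the difference ran from -0.42 to 0.45 for Hoxa7 and from -0.65 to 0.72 for Hoxa9, which sets how large a change the data would allow. Group means of Hoxa7 were 5.36, 5.37, 5.71 and 5.33 in control, let-7a, siSfpq and their combination. Those of Hoxa9 were 4.98, 5.01, 5.06 and 5.03. Hoxa4 passed through the let-7a + siSfpq arrays alone, and Hoxa6 through control and let-7a. Hoxa9 has a further probe, which was on 8 of 16 arrays and did not pass.

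The second comparison asks what the loss of Sfpq alone does. No Hox gene was called by limma with siSfpq against control, where 6.32% of all genes were called higher and 7.34% lower. At an unadjusted p under 0.05, 3 Hox genes passed, against 31.0% of all genes. Hoxb13 lay higher by 0.59, in 3 of 3 replicates (limma adjusted p = 0.147), and Hoxd3, which was on 4 of 4 control but 1 of 4 siSfpq arrays, had levels of 3.96 to 4.64 with siSfpq against 4.66 to 4.88 (limma adjusted p = 0.157). When blocked, 3 Hox genes were called higher and none lower, Hoxb13 (limma adjusted p = 0.0130) and Hoxd4 (log2 difference 0.44, limma adjusted p = 0.0451) among them, where 18.4% and 19.4% of all genes were called. Without replicate 3, 4 Hox genes were called, against 49.3% of all genes, with Hoxb13 (0.63, limma adjusted p = 5.44e-04), Hoxd3 and Hoxd9 (limma adjusted p = 0.0392 and 0.0146) among them. Hoxd9 was on 2 of 4 siSfpq arrays and 0 of 4 control arrays, so that the sizes of both differences are uncertain.

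With siSfpq, Hoxc4 differed by -0.18 from control (limma adjusted p = 0.790). Hoxc6 was on 1 of 4 control and 0 of 4 siSfpq arrays and Hoxc9 on 0 of 4 in both, so that no change of these genes could be measured. Among the genes that flank the clusters, Evx1, a homeobox gene next to Hoxa13, rose by 2.88 (limma adjusted p = 0.0139) with siSfpq, of 5 tested beyond HoxA. Beyond HoxB, Calcoco2 rose by 1.16 (limma adjusted p = 0.0296) and Copz2 by 0.51 (limma adjusted p = 0.0149), of 7 tested. Nfe2l1, Snx11, Skap1, Cbx1 and Atp5g1 were not called there. No tested gene beyond HoxC or HoxD was called with siSfpq. Among all genes 6.32% were called higher with siSfpq and 7.34% lower.

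The third question is how let-7a acts when siSfpq is present. Against control, let-7a + siSfpq gave no called Hox gene by limma, where 1.30% of all genes were called higher and 0.245% lower, and 1 Hox gene, Hoxc9, passed an unadjusted p under 0.05 against 11.8% of all genes. Its control level is background signal, on 0 of 4 arrays. Without replicate 3, 3 Hox genes were called against 18.3% of all genes, Hoxb13 (0.81, limma adjusted p = 8.61e-04) and Hoxc4 (0.61, limma adjusted p = 0.0286) among them. In the blocked fit Hoxb13 was called higher (0.56, limma adjusted p = 0.0420), where 5.34% of all genes were called higher and 2.81% lower. Against let-7a alone, Hoxc6 was called lower, with a measured log2 difference of -1.92 (standard error 0.39, limma adjusted p = 0.0256). Within slide 1 it was -2.56 and within slide 2 -1.59. Among all genes 2.18% were called lower and 0.954% higher. Hoxc9 differed by -1.91 (limma adjusted p = 0.0684, and 0.0260 with the block) and Hoxc4 by -0.86 (limma adjusted p = 0.241, and 0.0306 with the block). All 3 were lower in 3 of 3 replicates. With both agents Hoxc6 and Hoxc9 were each on 2 of 4 arrays, at means of 3.81 and 3.72, so that the sizes of their differences are uncertain. Hoxb13 differed by 1.06, with no overlap between the groups (limma adjusted p = 0.0506, and 0.00266 with the block). With the block, Hoxd3 (-0.66) and Hoxd4 (-0.63) were also called lower, where 7.19% of all genes were called lower and 5.96% higher. The call of Hoxc6 against let-7a was not made without replicate 4 (-2.03), without arrays 1 and 2 (-1.59) or without array 1 alone (-1.91). Hoxc6 and Hoxc9 had passed the filter through the let-7a arrays alone, which favours lower values in every other condition. With no filter the call of Hoxc6 was lost at the same difference of -1.92 (limma adjusted p = 0.0553). Its difference was -0.63 with normexp and -0.91 on the deposited values, both called. With normexp, on the deposited values and with only the groups compared, Hoxc9 and Hoxb13 were called as well. Without replicate 3, 6 Hox genes were called against 26.8% of all genes. Among them were Hoxb13 (1.29, limma adjusted p = 7.00e-05), Hoxc4 (-1.23, limma adjusted p = 0.00111) and Hoxd3 (-0.75, limma adjusted p = 0.0438). Hoxd9 was called too, but was on 1 of 4 arrays with both agents, so that the size of its difference could not be measured.

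Against siSfpq alone, 1 Hox gene was called lower and none higher. Among all genes 4.14% were called lower and 6.21% higher. Hoxc9 was on 2 of 4 arrays against 0 of 4. Its mean of 3.72 with both agents lay below the bound of 4.1 for the siSfpq arrays, so that no difference could be measured. Hoxc4 differed by 0.90 (limma adjusted p = 0.123, and 0.01495 with the block). Hoxd8 differed by -0.43, lower in 3 of 3 replicates (limma adjusted p = 0.0864, and 0.0154 with the block). The block called 17.6% of all genes higher and 15.7% lower in this comparison. Without replicate 3, 6 Hox genes were called against 47.2% of all genes, Hoxc4 (0.84, limma adjusted p = 0.00297) and Hoxd8 (-0.48, limma adjusted p = 0.0380) among them.

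**Figure D4:**
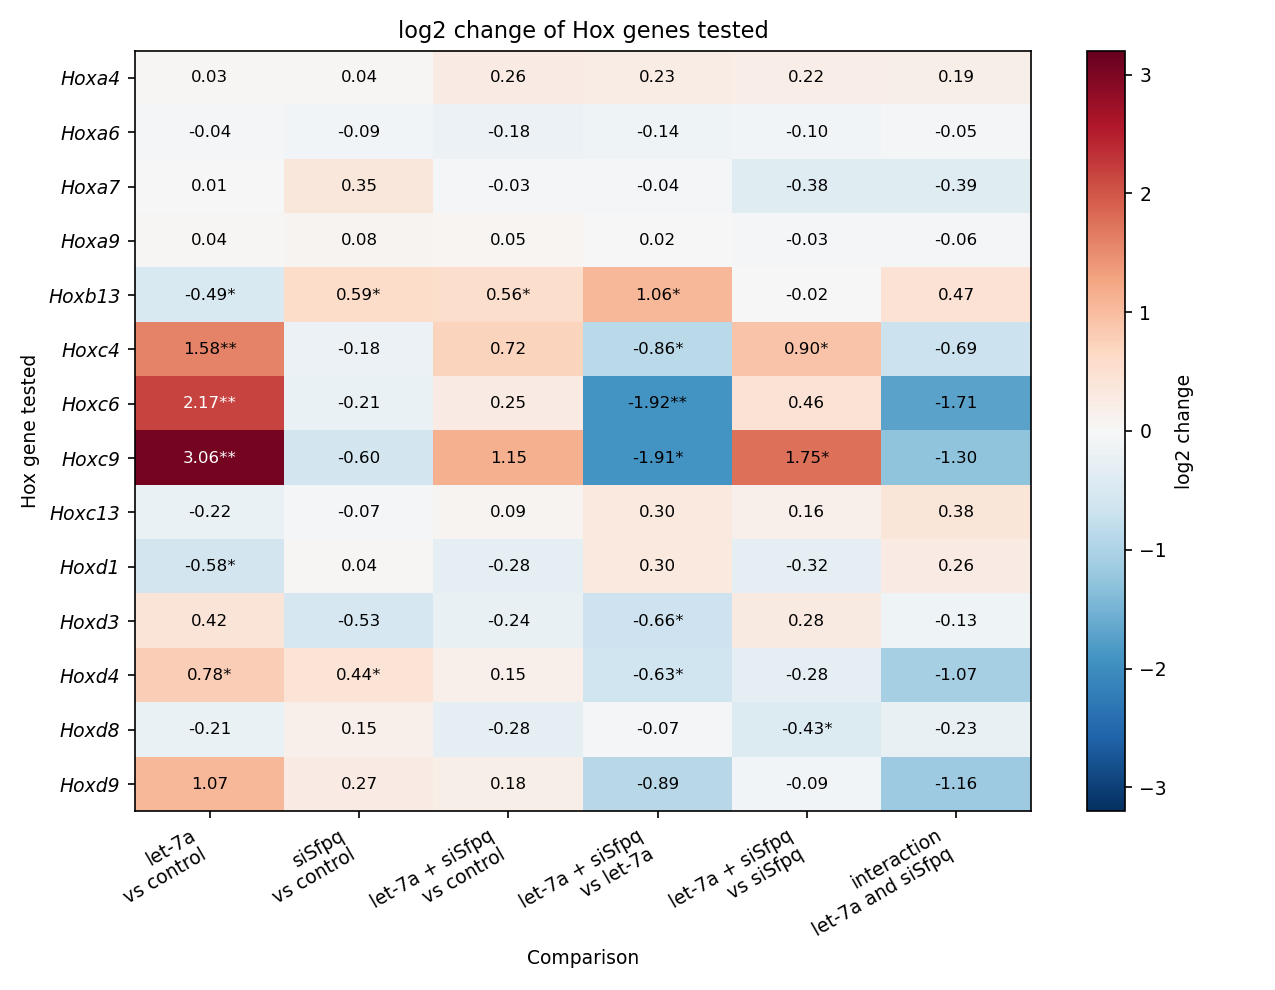
log2 change of tested Hox genes in the 5 comparisons and the interaction, blue lower and red higher. Values with 2 asterisks passed an adjusted p of 0.05 in the limma fit without a block, and those with 1 asterisk passed it in the blocked fit. Values of Hoxa4, Hoxa6, Hoxc6, Hoxc9, Hoxd3 and Hoxd9 that involve a condition in which they were on 0 to 2 of 4 arrays involve a level at or near background.

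The interaction sets the response to let-7a in siSfpq cells against the response in cells without siSfpq, as a test of the difference itself. As given above, the 2 conditions with siSfpq did not have the same mean Sfpq level, that with both agents being 0.52 above siSfpq alone, and the part of this in the interaction was not tested. No Hox gene, and none of the 18337 genes, passed by limma. At an unadjusted p under 0.05, 1 Hox gene passed against 6.34% of all genes, namely, Hoxc6 (-1.71, standard error 0.56, limma adjusted p = 0.755). The interaction of Hoxc9 was -1.30 (limma adjusted p = 0.818) and that of Hoxc4 was -0.69 (limma adjusted p = 0.864). Hoxc6 and Hoxc9 were on 0 of 4 siSfpq arrays and on 1 and 0 of 4 control arrays, so that background signal enters both of their responses and the sizes are uncertain. For Hoxc4, measured on all arrays, a smaller response in cells with siSfpq was not shown. In the blocked fit no Hox gene was called either, against 0.0218% of all genes called lower and 0% higher, the smallest limma adjusted p among them being 0.125 for Hoxd4. Without replicate 3, 6 Hox genes were called, Hoxb13, Hoxc4, Hoxd1, Hoxd4 and Hoxd9 among them, where 22.5% of all genes were. The comparisons of let-7a and of siSfpq share the control samples, and those with let-7a + siSfpq share that group.

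Hox proteins bind DNA together with TALE homeodomain cofactors, the Pbx, Meis and Pknox proteins. Of 11 TALE genes tested, which include the related Tgif1 and Tgif2, Meis1 rose with let-7a (1.26, limma adjusted p = 0.0210) and Tgif1 fell by 0.29. For this and the following lists, the shares of all genes called higher and lower are those given above, 4.91% and 2.03% with let-7a and 6.32% and 7.34% with siSfpq. With siSfpq 3 fell and none rose. Pknox2 fell by 0.55 and Meis3 fell by 0.54. Blocked on the replicate, 3 were higher and 2 lower with let-7a, against 11.6% and 10.1% of all genes, and 1 was higher and 4 lower with siSfpq, against 18.4% and 19.4%. The median over the list was 0.08 with let-7a and -0.15 with siSfpq, against -0.04 and 0.01 over all genes.

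Of 16 upstream regulators of Hox genes 12 were tested. With let-7a 1 rose and 3 fell. T fell by 2.29 (limma adjusted p = 0.00367), Fgf8 fell by 1.53 and Egr2 fell by 1.03. With siSfpq, Cdx2 (2.87, limma adjusted p = 0.0302), T (1.91), Cdx1 (1.53) and Fgf8 (1.28) rose and none fell. Cdx proteins switch on the middle and posterior Hox genes, and T and Fgf8 act in the tail bud. In let-7a + siSfpq against siSfpq, Cdx2 fell by 2.91, T fell by 2.39, Fgf8 fell by 1.80 and Znrf3 fell by 0.68, and 1 gene rose, where 4.14% of all genes were lower and 6.21% higher. With the block, 2 rose and 5 fell with let-7a, against 11.6% and 10.1% of all genes. With siSfpq the blocked fit gave 5 higher and 1 lower, against 18.4% and 19.4%.

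Of 22 retinoic acid pathway genes 20 were tested. Crabp1 (2.26, limma adjusted p = 0.0010), Aldh1a1 (1.62) and Crabp2 (1.09) rose with let-7a and none fell. Crabp proteins carry retinoic acid in the cell, and Aldh1a1 makes it. With siSfpq 3 rose and 5 fell. Crabp1 and Rarb, a receptor, fell by 2.27 and 1.23, while Aldh1a2 rose by 1.51 and Cyp26a1, which degrades retinoic acid, rose by 1.14 (limma adjusted p = 0.0194). In the blocked fit, 6 of these genes were higher and 2 lower with let-7a, where 11.6% and 10.1% of all genes were.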

How the data were processed

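RNA of transfected P19 cells was labelled with Cy3 and hybridized to Agilent mouse arrays (build mm9 per the file headers). The authors deposited scanner intensities per spot from Feature Extraction 10.7.3.1, the processed intensity being background-subtracted and detrended, with no scaling between arrays. They also deposited log2 values, quantile normalized by the authors with limma, which follow the median spot intensity (r of 0.9995 to 1 per array).

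Here, log2 processed intensities were quantile normalized with limma 3.58.1 in R 4.3.3, with the data.table package (version 1.17.8). Outlier spots were dropped and the spots of a probe averaged. A probe entered when more than 0.5 of its spots were well above background on all 4 arrays of any condition. Probes were named through RefSeq accessions (28026 probes), those named by a region or by no gene were left out (18905 probes), 39 probes without a value on an array were dropped, and probes of a symbol were averaged. Sequences were read in Python 3.11.15 with pandas 2.3.3, and figures drawn with matplotlib 3.10.9 and numpy 2.4.6.

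Condition means were fitted over 12 samples in a limma model with an intensity trend, for 5 differences and the interaction, with a two-sided threshold of 0.05 on the p adjusted by Benjamini-Hochberg over 18337 genes. With 3 samples per condition an exact permutation test cannot go below 0.1, and this number limits the precision. Replicate numbers are those of the sample titles. They pair the samples, since all 18 correlations of the deviations of same-numbered samples were above 0.1 (0.284 to 0.707). Depth does not apply to intensities. The fit was also run on simulated data with independent noise and no replicate effect. Such data cannot show how it behaves on samples paired as these are. Hox genes called in any comparison are given by sample, other tested ones by range or mean, and of each list the called members with the largest change, up to 4. Some genes and 1 probe sequence are counted but not reported here. The members, the gene lists and the tests were chosen with earlier results of these data known. Alternatives tried were normexp (offset 50) or the 75th percentile in place of the normalization, other filters on dim probes, a block for the replicate or the slide, left-out replicates, 16 arrays kept apart, the deposited log2 values, a gene's brightest probe, fits without the other conditions or without the trend, a log2 change of at least 1, and, chosen after seeing the data, probes fitted on their own.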

Additional observations from a re-analysis of the deposited data

Results flagged for a closer look

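In 2 tested Hox genes every replicate moved one way with let-7a in cells without siSfpq and the opposite way in cells with it. Hoxd4 lay higher with let-7a by 0.48 to 0.97 on the log2 scale without siSfpq and differed by -0.38 to -0.14 with it, an interaction of -1.07 (limma adjusted p = 0.811, and 0.125 when blocked on the replicate). Hoxc13 differed by -0.34 to -0.03 without siSfpq and by 0.02 to 0.25 with it, an interaction of 0.38 (limma adjusted p = 0.884, and 0.312 with the block). Neither interaction passed the test.

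Among the Hox genes that were not tested, 2 were well above background on 3 of 4 arrays of a treated condition and on 0 of 4 control arrays. For Hoxb4 these were let-7a arrays, with levels of 4.53, 3.03 and 3.87 against 2.36, 2.63 and 2.80 in control (arrays 1 and 2, replicate 3 and replicate 4). For Hoxb7 they were siSfpq arrays, with levels of 4.71, 2.34 and 4.83 against 3.67, 2.78 and 3.41. Replicate 3 was the lowest treated sample of both genes. These levels were not tested, and Dixon's test for a single distant sample was not run with 3 samples per condition.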

How the results depend on the processing

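Numbers of Hox genes called depended on the samples and the block. With the replicate block, 7 Hox genes were called with let-7a, 3 with siSfpq, 1 with let-7a + siSfpq against control, 7 against let-7a and 4 against siSfpq, where 21.7%, 37.8%, 8.15%, 13.2% and 33.3% of all genes were called. The main numbers were 3, 0, 0, 1 and 1. The block changed no call of the interaction, at 0 Hox genes. Leaving out replicates gave 0 to 8 with let-7a, 0 to 4 with siSfpq, 0 to 3 with let-7a + siSfpq against control, 0 to 6 against let-7a, 0 to 6 against siSfpq and 0 to 6 for the interaction. The highest numbers are those without replicate 3, where 30.1%, 49.3%, 18.3%, 26.8%, 47.2% and 22.5% of all genes were called in this order. Without replicate 4, or without replicates 1 and 2, no Hox gene was called by limma in any comparison, and at most 3 of all genes were. Counting 16 arrays separately gave 2 with siSfpq, 4 against let-7a and 4 against siSfpq, where 36.0%, 14.2% and 32.4% of all genes were called. Only probes on all 16 arrays gave 1 with let-7a and 0 against let-7a (6.15% and 2.71% of all genes), since Hoxc6 and Hoxc9 then drop out. No filter gave 0 against let-7a and 0 against siSfpq, where 1.13% and 3.82% were called. Against let-7a, normexp gave 3, the slide as a block 2, the deposited values 3, the brightest probe 2 and only the groups compared 3, where 4.28%, 3.82%, 3.93%, 3.41% and 2.99% of all genes were called. Against siSfpq, 75th percentile scaling gave 0, the brightest probe 2, only the groups compared 0 and no trend 2, against 12.5%, 10.2%, 1.20% and 8.47%. The cause was not tested.

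Of 22 gene changes called with or without the block, no direction turned under any alternative. For the 5 called without it, 70 of 87 alternative values kept the call and 17 lost it. For the other 17 changes, 51 of 300 values gained a call. Of these 51, 17 are the calls with the block, by which the changes had been chosen. Signal over background limits the rest, since 24 of the 39 genes had no test.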

Other observations

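Chromatin regulators of Hox clusters changed by less than 1 log2 unit. Of 28 Polycomb group genes, all tested, 1 rose with let-7a and none fell, where 4.91% of all genes rose and 2.03% fell. With the block, 1 was higher and 3 lower with let-7a, namely, Ezh2 (-0.27), Mtf2 (-0.29) and Yaf2 (-0.27), where 11.6% and 10.1% of all genes were. With siSfpq 4 rose and 3 fell, against 6.32% and 7.34% of all genes, shares that also serve the lists below. Pcgf1 (0.55), Suz12 (0.52) and Pcgf5 (0.52) rose, and Ring1 fell by 0.61. With siSfpq in the blocked fit 8 were higher and 5 lower, against 18.4% and 19.4% of all genes. Of 20 Trithorax group genes, Dot1l and Wdr5 fell by 0.48 and 0.39 with let-7a. With the block 3 were lower and none higher, against 10.1% and 11.6% of all genes. Kdm6b, an eraser of the Polycomb mark, fell by 0.52 with siSfpq. There the block gave 3 higher and 2 lower, against 18.4% and 19.4% of all genes.

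The cells carried the markers of embryonal carcinoma. Of 11 markers 10 were tested, Zfp42 not. With let-7a, Lin28a, Utf1 and Nanog fell by 0.77, 0.70 and 0.58 and none rose, and Tdgf1 (-0.75) was also lower with the block. With siSfpq, Fgf4, Esrrb and Utf1 rose by 1.11, 0.87 and 0.79, and Sox2 fell by 0.72. The summed level of the tested markers was 64100 to 74700 in control, 42200 to 58600 in let-7a, 76100 to 85100 in siSfpq and 58800 to 64400 with both agents.

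Tail bud and paraxial mesoderm markers, of which 4 of 6 were tested (Msgn1 and Cdx4 not), summed to 1230 to 1640 in control, 538 to 570 in let-7a, 3040 to 6580 in siSfpq and 766 to 1680 with both. T fell with let-7a, and Cdx1, Cdx2 and T rose with siSfpq. Of the 6 fibroblast and mesenchyme markers, Prrx1 rose with let-7a by 1.33 (limma adjusted p = 0.0316), and Dcn and Lum rose with siSfpq by 1.12 and 0.81, where Col1a1 (-0.84) was called lower with the block alone. Their sums were 6450 to 7660 in control, 5600 to 7800 in let-7a, 10500 to 17000 in siSfpq and 12400 to 14500 with both. The part of these markers in the Hox values was not tested.

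Of 16 other homeobox genes of the posterior or ParaHox type, 9 were tested. None was called with let-7a. With siSfpq, Evx1 and Meox2 rose, the latter by 1.54 (limma adjusted p = 0.0175). In the blocked fit, let-7a gave 2 higher and 1 lower, where 11.6% and 10.1% of all genes were, and siSfpq 4 higher, where 18.4% were.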
